A study of Homo sapiens with 2 samples.

Results

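Igf2bp3, Ybx1 and Pcbp2 encode cytoplasmic mRNA-binding proteins, and their counts were compared between 1 SCRN1 knockout library and 1 vector library of HepG2 cells, a human hepatocellular carcinoma line. The 3 genes were taken by symbol from the deposited table and are 3 of its 3764 genes. The knockout of SCRN1 (secernin 1) was made with CRISPR-Cas9, per the series' design text, and the vector library carries the genotype label WT. Neither culture was treated, and the labels do not say whether the knockout line is 1 clone. With 1 library per group there is no replicate, so the intervals, all at 95%, cover counting error alone and the comparison is one of 2 libraries rather than of 2 conditions. Reads are not independent molecules, so even these intervals may be too narrow.

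IGF2BP3 is an oncofetal protein: it is made in the embryo, is largely silent in adult tissues and reappears in many cancers, liver cancer among them. It binds mRNAs through RNA recognition motifs and KH domains, and with its relatives it is known to protect target mRNAs, including those that carry N6-methyladenosine (m6A). YBX1 holds a cold-shock domain, the fold first known from bacterial cold-shock proteins, and packages mRNAs in the cytoplasm, where it influences their stability and translation. PCBP2 uses KH domains to bind C-rich stretches of mRNA, which bears on their stability and translation, and it also carries iron to ferritin and to iron-dependent enzymes.

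The table names mouse genes with mouse Ensembl identifiers, although the cells are labelled human. The total count was 163644 in knockout cells and 178421 in vector cells. A count of 0 allows up to 18.5 CPM (counts scaled by TMM to library size) in knockout cells and 16.7 CPM in vector cells, taking 3 counts as the limit. Scrn1 was not among the listed genes, so the targeted gene could not be checked. Of 16 hepatocyte and HepG2 marker genes 1 was listed, Krt8 (keratin 8), with 2 counts in knockout cells and 0 in vector cells, and the other 15, Alb and Afp among them, were not listed. Of 8 leukocyte markers 2 were listed, with summed counts of 3 in knockout cells and 24 in vector cells, 21 of those in vector cells being Lyz2. Of 8 fibroblast markers 1 was listed, Col1a1, with 4 counts in knockout cells and 6 in vector cells, and none of 5 endothelial markers was listed. The part of these markers in the results below was not tested. In bulk RNA, a lower count can come from fewer cells or from less RNA per cell, and the counts do not tell these apart.

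Each of the 3 genes has relatives of similar sequence, so the coding sequences of the human genes (GENCODE 29, GRCh38) were compared to see where a read could belong to either. The longest identical stretch between PCBP2 and PCBP1 was 33 bases, between IGF2BP3 and IGF2BP1 21 bases, and between YBX1 and YBX3 20 bases. These stretches are shown because they are the places where the relatives are hardest to tell apart. They are printed 5′ to 3′ with 20 bases on either side, and the capitals mark the identical run.
PCBP2: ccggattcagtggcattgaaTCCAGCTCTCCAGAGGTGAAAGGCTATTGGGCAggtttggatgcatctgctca
PCBP1: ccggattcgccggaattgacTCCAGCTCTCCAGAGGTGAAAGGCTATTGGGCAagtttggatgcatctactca
YBX1: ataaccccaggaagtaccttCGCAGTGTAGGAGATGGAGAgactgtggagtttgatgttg
YBX3: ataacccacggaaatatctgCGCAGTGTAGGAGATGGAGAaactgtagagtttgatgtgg
IGF2BP3: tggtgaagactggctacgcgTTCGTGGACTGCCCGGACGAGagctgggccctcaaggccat
IGF2BP1: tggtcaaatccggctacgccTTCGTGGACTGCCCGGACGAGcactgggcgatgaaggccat

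The identical PCBP2 run is spliced from exons 12 and 13. With the flanking bases, as printed and as in the GRCh38 positions that follow, the PCBP2 sequence spans exons 11 to 13 within chr12:53467282-53468798 (plus strand), and its counterpart lies in the single coding exon of PCBP1 at chr2:70088507-70088579 (plus strand). The YBX1 stretch lies in exon 4 at chr1:42696215-42696274 (plus strand) and encodes part of the cold-shock domain, and the YBX3 stretch lies in exon 4 at chr12:10715708-10715767 (minus strand). The IGF2BP3 stretch is in exon 1 at chr7:23469950-23470010 (minus strand), and that of IGF2BP1 in exon 1 at chr17:48997846-48997906 (plus strand). Of the 25-base windows of the PCBP2 coding sequence, 11 of 1077 (1.02%) were also found in PCBP1. No window of that length was shared between YBX1 and YBX3 (0 of 951) or between IGF2BP3 and IGF2BP1 or IGF2BP2 (0 of 1716 each). These are human sequences, and how human reads were assigned to mouse genes is not given in the sources used.

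None of the 3 genes differed by 2-fold between the knockout and vector libraries. A gene was called when the interval of its TMM-scaled ratio excluded 1 and the ratio reached 2 or 0.5. Comparison was limited to genes whose 2 counts summed to 20 or more. By that rule 7.24% of 1588 compared genes were called, 53 (3.34%) higher and 62 (3.90%) lower in knockout cells, so 0 of 3 is no result about these genes. With the counts left unscaled, as median-of-ratios scaling did, 42 were higher and 89 lower. Ybx1 was nearly even between the libraries, Pcbp2 was modestly lower in knockout cells, and Igf2bp3 was too sparsely counted for a change of modest size to show.

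Igf2bp3 (ENSMUSG00000029814, protein-coding) is listed on mouse chromosome 6 from position 49085223 to 49214957, on a mouse build that is not given in the sources used. It had 39 counts in knockout cells and 49 in vector cells, or 240 CPM in knockout cells and 273 CPM in vector cells after TMM scaling. The 2 libraries' counting intervals overlapped. The ratio of knockout to vector was 0.881 (0.563 to 1.37). At its 88 counts the interval would leave out equality only for a ratio of at least 1.60 or at most 0.632. Among 364 genes with 60 to 120 counts the ratios between the lower and upper quartiles ran from 0.815 to 1.22, which takes in that of Igf2bp3, and 117 of these genes had a lower ratio.

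Ybx1 (ENSMUSG00000028639, protein-coding) is listed on mouse chromosome 4 from 119277981 to 119294604. It had 2123 counts in knockout cells and 2384 in vector cells, and it ranked 6 of 3764 genes by count in both. These were 13070 CPM in knockout cells and 13262 in vector cells, which lay within counting error of each other. The ratio was 0.986 (0.929 to 1.05). This depth would have shown a ratio of 1.06 or more or of 0.943 or less. With the counts left unscaled, and so without correction for the different depths, the ratio was 0.891 (0.840 to 0.945), and its interval then left out equality.

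Pcbp2 (ENSMUSG00000056851, protein-coding) is listed on mouse chromosome 15 from 102470539 to 102500061 and ranked 4 by count in both libraries. It had 2396 counts in knockout cells and 2958 in vector cells, or 14751 CPM in knockout cells and 16456 CPM in vector cells. The ratio was 0.896 (0.849 to 0.946), lower in knockout cells by more than counting error and far from 2-fold. Over all compared genes 7.81% had an interval below equality, and at such depth this was more common: of 54 genes with at least 1000 counts, 12 (22.2%) had one, and 27 (50.0%) had an interval on either side of equality. The ratios of these 54 genes ran from 0.675 to 1.38, with 9 below that of Pcbp2 and 21 below that of Ybx1. Pcbp2 overlaps 2 listed genes, Map3k12 with 6 counts in knockout cells and 0 in vector cells and Gm27406 with 1 in each.

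**Figure D1:**
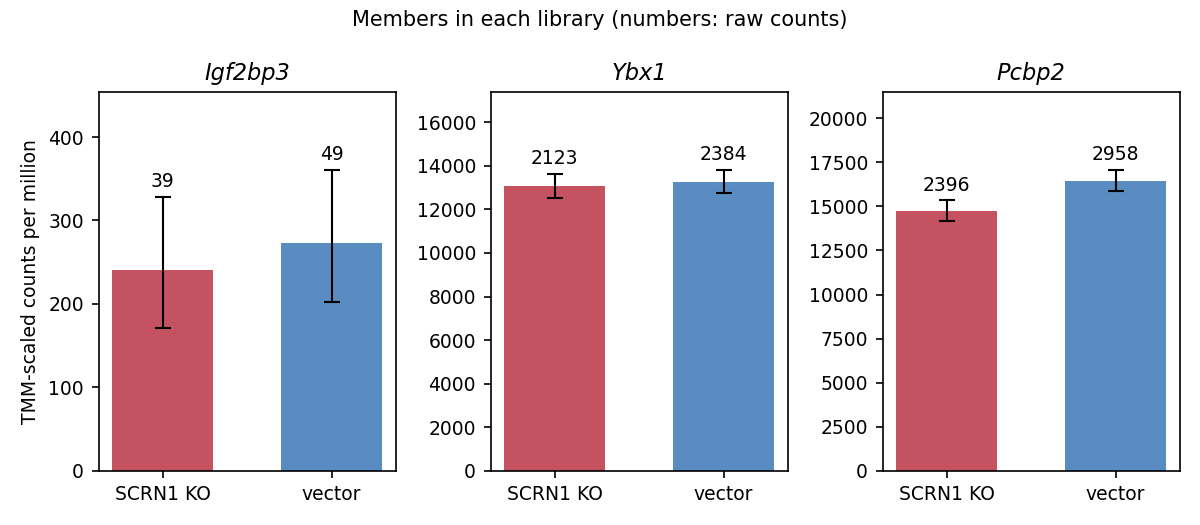
TMM-scaled CPM of Igf2bp3, Ybx1 and Pcbp2 (y axis, linear from 0) in the SCRN1 knockout library and the vector library (1 library each), with 95% exact Poisson intervals as error bars and the raw count above each bar. The intervals of knockout and vector cells overlap for Igf2bp3 (39 counts in knockout and 49 in vector cells) and Ybx1 (2123 in knockout and 2384 in vector cells), while those of Pcbp2 (2396 in knockout and 2958 in vector cells) do not.

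**Figure D2:**
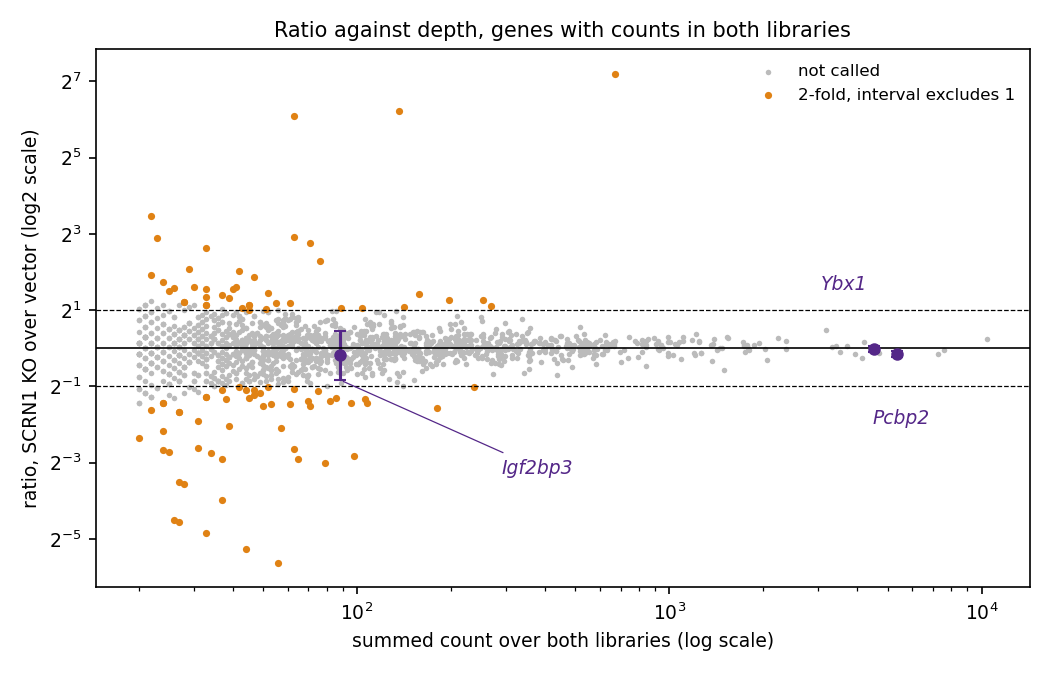
Ratio of knockout to vector counts (y axis, log2 scale) against the summed count (x axis, log scale) for compared genes with a count in both libraries. Called genes are orange, other genes grey, and the 3 named genes purple with their 95% counting intervals; all 3 lie between the dashed 2-fold lines, and the spread of the ratios narrows toward the depth of Ybx1 and Pcbp2.

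The quotient of 2 genes within a library does not depend on the scaling between libraries, and it was used to set the 3 genes against each other, a comparison chosen after their counts were seen. In all 6 such quotients were compared, with no adjustment for their number. There were 0.886 Ybx1 counts per Pcbp2 count in knockout cells and 0.806 in vector cells. The ratio of these quotients was 1.10 (1.01 to 1.19), so Pcbp2 was lower relative to Ybx1 in knockout cells by slightly more than counting error. For Igf2bp3 against Pcbp2 the ratio of quotients was 0.983 (0.626 to 1.53), and against Ybx1 it was 0.894 (0.569 to 1.40). Neither could be told from equality at this depth.

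Together the 3 genes held 4558 counts, 2.79% of the knockout library (2.71 to 2.87, Wilson interval), and 5391 counts, 3.02% of the vector library (2.94 to 3.10). The ratio of the sums was 0.936 (0.899 to 0.974). Pcbp2 carried most of that difference, since the ratio without it was 0.983, against 0.896 without Ybx1 and 0.936 without Igf2bp3. The authors' deposited log2 fold changes, vector over knockout, were 0.204 for Igf2bp3, 0.0423 for Ybx1 and 0.179 for Pcbp2. The p-values deposited with them come from 1 library per group and measure no spread between replicates, so they are not used here.

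Levels of different genes were compared per length, with the deposited FPKM (fragments per kilobase, scaled to library size). Of the 3 genes Ybx1 had the highest level, 2624 FPKM (2514 to 2738) in knockout cells and 2702 (2595 to 2813) in vector cells. Pcbp2 followed with 1294 FPKM (1243 to 1347) in knockout cells and 1465 (1413 to 1519) in vector cells. Igf2bp3 was lowest at 25.8 FPKM (18.3 to 35.2) in knockout cells and 29.7 (21.97 to 39.3) in vector cells, so the FPKM of Pcbp2 was 50.2 times that of Igf2bp3 in knockout cells and 49.3 times in vector cells. The order was the same in both libraries. It is an order of values listed for mouse genes and may differ from that of the human transcripts in the cells.

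The length behind these FPKM values bears on the order of the upper pair. From counts and FPKM it came to 4924 bases for Ybx1, 11265 for Pcbp2 and 9209 for Igf2bp3. For Hnrnpk, a relative of Pcbp2, it came to 18083 bases, more than the 12202 bases that its whole locus spans, and 203 of 2785 protein-coding genes with a count in vector cells exceeded their locus by more than 1%. The human coding sequences are 975 bases for YBX1, 1101 for PCBP2 and 1740 for IGF2BP3. Per kilobase of human coding sequence, Ybx1 had 2177 counts and Pcbp2 2176 counts in knockout cells, which were equal within counting error. In the vector library Ybx1 had 2445 counts per kilobase (2348 to 2545) and Pcbp2 had 2687 (2591 to 2785). The order of Ybx1 and Pcbp2 in FPKM therefore did not hold with this other length, while Igf2bp3 stayed far below both, with 22.4 counts per kilobase in knockout cells and 28.2 in vector cells.

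**Figure D3:**
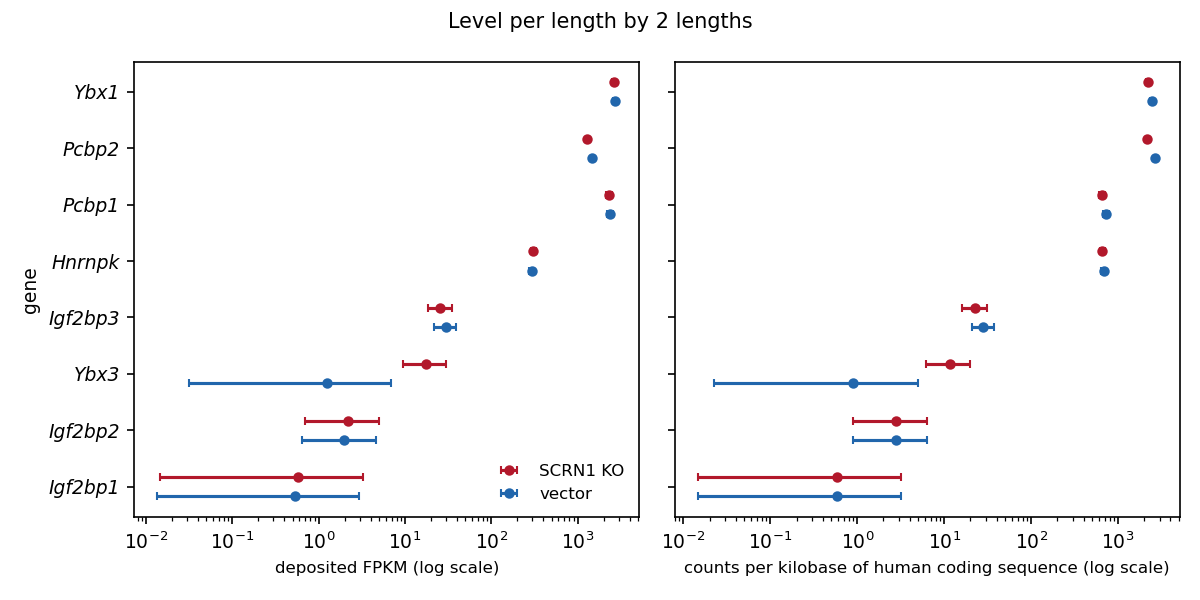
Level per length of the 3 genes and their listed relatives, as deposited FPKM (left, log scale) and as raw counts per kilobase of human coding sequence (right, log scale, not scaled between libraries), in knockout cells (red) and the vector library (blue), with 95% exact Poisson intervals. Ybx1 lies above Pcbp2 in FPKM (2624 against 1294 in knockout cells), while the pair is level in knockout cells on the right (2177 against 2176).

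In the IGF2BP family, Igf2bp3 was the member with nearly all of the counts. How human reads were assigned to these mouse genes is not given, so the counts need not follow the levels in the cells. All 3 family genes were listed, and only Igf2bp3 had at least 20 counts. Igf2bp2, a family member made in many adult tissues, had 5 counts in each library, or 2.16 FPKM in knockout cells and 1.99 in vector cells. Igf2bp1, the other oncofetal member, had 1 count in each library, so no difference could be seen for either.

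Among the cold-shock domain genes considered, 2 of 7 were listed, Ybx1 and Ybx3, and only Ybx1 had at least 20 counts. Ybx3, the closest listed relative of Ybx1, had 13 counts in knockout cells and 1 in vector cells. That is a ratio of 14.4 (2.16 to 611), below the count minimum and therefore not compared. The authors' deposited log2 fold change of Ybx3, vector over knockout, was -3.83, and it rests on the same few counts.

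A processed pseudogene of Ybx1 was also well counted. Ybx1-ps2, on mouse chromosome 6 from 37686239 to 37687195, had 665 counts in knockout cells and 757 in vector cells, a ratio of 0.972 (0.875 to 1.08). The gene and this copy kept nearly the same proportion, with 3.19 Ybx1 counts per Ybx1-ps2 count in knockout cells and 3.15 in vector cells, a ratio of 1.01 (0.898 to 1.14). In deposited FPKM the copy stood above the gene, with 4230 in knockout cells and 4416 in vector cells for Ybx1-ps2. That order rests on the length behind FPKM, which came to 957 bases for the copy and 4924 for the gene. The human YBX1 coding sequence, of 975 bases, is close to the length of the copy, and by count the gene stood above the copy. Which of the 2 is higher per length is therefore not settled by FPKM. How reads that match both were counted is not given, so the level of Ybx1 is uncertain. With both loci summed the ratio was 0.982. No pseudogene of Pcbp2 or Igf2bp3 was found among the listed genes by symbol or description.

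Of 5 poly(C)-binding genes 3 were listed, and all 3 were compared without passing the 2-fold rule. Pcbp1, whose protein shares the RNA binding and iron-carrying roles of PCBP2, had 701 counts in knockout cells and 778 in vector cells, a ratio of 0.997 (0.899 to 1.11). Hnrnpk, which encodes a KH-domain protein of nucleus and cytoplasm, had 912 counts in knockout cells and 949 in vector cells, a ratio of 1.06 (0.970 to 1.17), and of 0.961 with unscaled counts. Set against these relatives, Pcbp2 was lower in knockout cells relative to Hnrnpk: the quotient of Pcbp2 to Hnrnpk was 2.63 in knockout cells and 3.12 in vector cells, a ratio of 0.843 (0.757 to 0.938). Relative to Pcbp1 the quotient was 3.42 in knockout cells and 3.80 in vector cells, and its ratio of 0.899 (0.800 to 1.01) could not be told from equality.

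Transcripts of other proteins that act on mRNAs were compared next. Of 45 genes of cytoplasmic mRNA-binding partners 40 were listed and 29 compared, with 0 higher and 1 lower by 2-fold in knockout cells, against 3.34% higher and 3.90% lower of all 1588 compared genes. The interval lay above equality for 4 of the 29 and below it for 7, against 8.69% above and 7.81% below of all compared genes. The median log2 ratio of those compared was -0.02, against 0.03 over all compared genes. Pabpc1, the cytoplasmic poly(A)-binding protein gene, had 3251 counts in knockout cells and 4016 in vector cells, a ratio of 0.896 (0.855 to 0.939) close to that of Pcbp2. Matr3, a gene of an RNA-binding nuclear matrix protein, also had a ratio of 0.896 (0.841 to 0.954), with 1755 counts in knockout cells and 2168 in vector cells, and the RNA helicase gene Ddx3x had 1.03 (0.968 to 1.10), or 0.933 (0.874 to 0.996) with unscaled counts. Elavl1 was the gene called lower. It encodes HuR, which stabilizes mRNAs with AU-rich elements, and had 3 counts in knockout cells and 17 in vector cells, a ratio of 0.195 (0.0367 to 0.675) that rests on the smallest summed count compared.

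A complex of IGF2BP1, YBX1, SYNCRIP, HNRNPU and DHX9 is known in human cells to stabilize MYC mRNA through a stretch of its coding region. Hnrnpu had 1761 counts in knockout cells and 1412 in vector cells, a ratio of 1.38 (1.29 to 1.48). Syncrip had 869 counts in knockout cells and 1183 in vector cells, a ratio of 0.813 (0.744 to 0.888). These 2 genes thus lay on opposite sides of equality, with Ybx1 at 0.986 between them, and Dhx9, with 16 counts in knockout cells and 14 in vector cells, could not be told from equality.

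Of 15 genes that write, read or erase m6A, the mark that IGF2BP proteins read, 11 were listed and 8 compared, with 0 higher and 1 lower, against 3.90% lower of all compared genes. Ythdc2, an m6A-binding helicase gene, was the one lower, with 16 counts in knockout cells and 36 in vector cells, a ratio of 0.492 (0.255 to 0.909). The cytoplasmic readers Ythdf3 and Ythdf2 had ratios of 0.815 (0.670 to 0.992) and 0.994 (0.792 to 1.25), and the nuclear reader Ythdc1 had 1.33 (1.06 to 1.68), or 1.20 (0.954 to 1.52) with unscaled counts, which takes in equality. The median log2 ratio of the 8 genes was -0.02, against 0.03 over all compared genes.

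mRNAs that have been reported as bound by these proteins were sparsely listed. Of 15 such client genes 7 were listed and 4 compared, with 0 higher and 1 lower, against 3.90% lower of all compared genes, while Igf2, Hmga2, Cd44 and Myc were not among the listed genes. The gene called lower was Hif1a, the hypoxia-inducible factor whose translation YBX1 has been reported to promote, with 8 counts in knockout cells and 55 in vector cells, a ratio of 0.161 (0.0662 to 0.340). Top2a, a DNA topoisomerase gene of dividing cells, had 95 counts in knockout cells and 120 in vector cells, a ratio of 0.876 (0.662 to 1.16). Zeb2, a mesenchymal transcription factor gene, had 16 counts in knockout cells and 31 in vector cells, a ratio of 0.571 (0.292 to 1.08). Actb, which encodes cytoplasmic actin, had 7 counts in knockout cells and 16 in vector cells, and its ratio of 0.484 (0.168 to 1.24) had an interval that took in equality. The median log2 ratio of the 4 genes was -0.89, against 0.03 over all compared genes. This median lies between Zeb2 and Actb, whose intervals both took in equality. The list was chosen with earlier results of these data known, so its median is no evidence of a shift. Below the count minimum, Cdk6 had 11 counts in knockout cells and 5 in vector cells, Twist1 4 and 0, and Ccnd1 0 and 2.

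Pcbp2 and Pcbp1 deliver iron to ferritin, and the deposited annotation places Pcbp2 in the ferroptosis pathway. Of 9 iron partners 3 were listed and compared, with 0 higher and 2 lower, against 3.90% lower of all compared genes. This list too was chosen with earlier results of these data known, so the count is no evidence of a shift. Fth1, which encodes the heavy chain of ferritin, had 23 counts in knockout cells and 63 in vector cells, a ratio of 0.404 (0.239 to 0.661). Ftl1, which encodes the light chain, had 6 counts in knockout cells and 25 in vector cells, a ratio of 0.266 (0.0891 to 0.663). Egln1, a prolyl hydroxylase gene whose protein receives iron from PCBP proteins, had 33 counts in knockout cells and 23 in vector cells, a ratio of 1.59 (0.905 to 2.83). Both ferritin genes have many processed copies, so their values are uncertain.

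**Figure D4:**
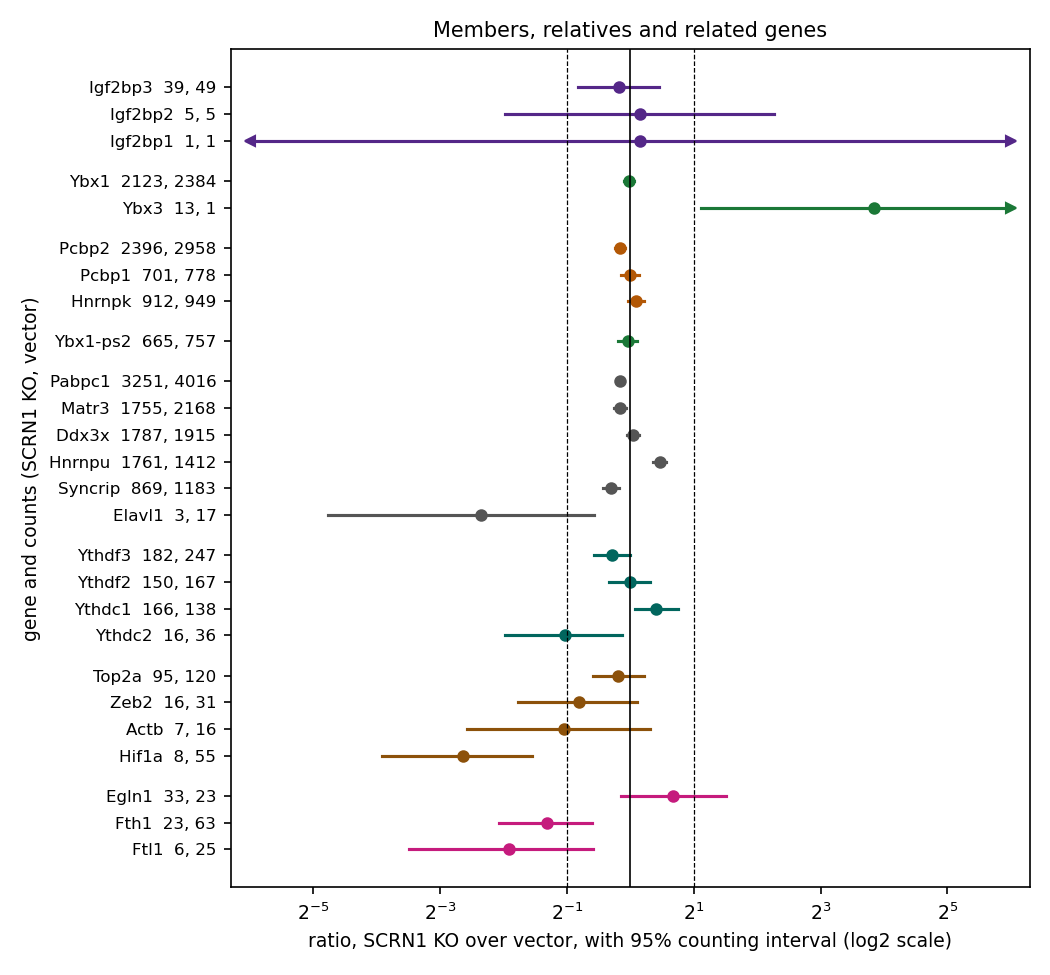
Ratio of knockout to vector counts (x axis, log2 scale) with its 95% counting interval for Igf2bp3, Ybx1, Pcbp2, their relatives and the named genes of related lists (rows, with the counts in the knockout and then the vector library). Arrowheads mark intervals that run past the axis, and dashed lines mark 2-fold. The well-counted relatives stay near equality, while Hif1a (0.161), Elavl1 (0.195), Ftl1 (0.266), Fth1 (0.404) and Ythdc2 (0.492) lie below 0.5, as does Actb (0.484), whose interval crosses equality.

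The genes with the level most like each of the 3 were found by distance in log2 FPKM over both libraries among genes with at least 20 counts. Nearest to Igf2bp3 were Tab2 (26.7 FPKM in knockout cells and 29.2 in vector cells, distance 0.054), Luc7l (0.055) and Mta1 (0.057). Nearest to Ybx1 were the pseudogene Gm10705 (0.108), Matr3 (0.135) and Eif5a (0.139). Nearest to Pcbp2 were the pseudogene Gm12966 (0.174), Hnrnpa1 (0.220) and the pseudogene Gm7318 (0.220). With 2 libraries this likeness is one of level and ratio only. It also depends on the length behind FPKM. By count the pseudogenes lay far lower, as for Gm10705 with 189 counts in knockout cells and 211 in vector cells, against 2123 and 2384 for Ybx1.

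In the deposited annotation the 3 genes shared 18 terms, of which the narrowest was RNA binding. That term held 374 listed genes, of which 233 were compared, 8 higher and 13 lower in knockout cells, which is 9.01% against 7.24% of all compared genes. The term for regulation of mRNA stability, which holds Ybx1, had 33 compared genes with 1 higher and 2 lower, or 9.09% called, and a median log2 ratio of -0.02. The terms were picked from the annotation of the 3 genes after the counts were seen.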

How the data were processed

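The authors deposited 1 table with raw counts per gene, per the file headers, for 1 SCRN1 knockout and 1 vector library. It also holds deposited FPKM values, and a log2 fold change and p-value columns from the authors' own comparison, in which the log2 fold change is vector over knockout. HISAT2 2.0.4 and StringTie 1.3.0, with bcl2fastq 2.19 and the build GRCh38, appear in the submitters' processing notes. Neither the counting tool nor the mouse build or strand setting is given in the sources used here.

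Scaling between the libraries used TMM (edgeR 4.0.16 under R 4.3.3). Ratios are knockout over vector, with exact conditional binomial (Clopper-Pearson) intervals at 95%. Log2 ratios were taken after adding 0.5 to the counts, and a fold against 0 used 3 counts in that library. Alternatives were library totals, DESeq2 1.42.0 size factors, which left counts unscaled, upper-quartile scaling, other count minimums and a 1.5-fold limit. A quasi-likelihood test cannot be fitted to 1 library per group. Intervals of FPKM and of counts per kilobase are exact Poisson intervals of the counts. The length behind FPKM was taken relative to processed pseudogenes, whose length was set to their locus. Coding sequences were those of the longest human coding transcript in GENCODE 29. The interval and the call rule were tried on simulated Poisson counts with known library totals. That trial held no variation beyond counting error and did not use TMM scaling, so it does not bear on either.

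The 3 genes and the gene lists were chosen with earlier results of these data known. Named genes were the 3 genes, listed members of their families, up to 4 called genes and the 3 others with most counts in each of 4 related lists, listed pseudogenes, and the 3 genes nearest in level. One further relative is not reported here. Hnrnpu, Syncrip, Dhx9, Stau1, Strap, Dhx36, Rbm4, Cdk6, Twist1 and Ccnd1 were named after their values were seen. Intervals were computed with SciPy 1.17.1 in Python 3.11.15.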

Additional observations from a re-analysis of the deposited data

How the results depend on the processing

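No replicate was left out, and no paired analysis was possible because each group has 1 library. Median-of-ratios scaling left the counts unscaled, shifted every log2 ratio by -0.15 and gave ratios of 0.891 for Ybx1, 0.810 for Pcbp2 and 0.845 for the summed genes. The median log2 ratio of all compared genes was then -0.12, with 42 genes higher and 89 lower. Under the scalings tried the ratio of Igf2bp3 ran from 0.796 to 0.888 and stayed within its counting interval. The summed ratio was 0.896 without Ybx1 and 0.983 without Pcbp2. The 53 genes higher in knockout cells became 128 with no count minimum, 9 with at least 100 counts and 93 with a 1.5-fold limit, and the 62 lower became 167 with no minimum, 5 with at least 100 counts and 88 with a 1.5-fold limit, since these settings change which genes can be called. For the 7 lists of related genes, 0 higher and 5 lower genes became 3 and 9 with no minimum, 0 lower with at least 100 counts, and 2 higher and 6 lower with a 1.5-fold limit. The lists had 1, 1, 3, 29, 8, 4 and 3 compared genes, and of all 1588 compared genes 3.34% were higher and 3.90% lower. The lists were chosen with earlier results of these data known, so these counts are no result about direction. These list settings and the other length were chosen after seeing the data. Ybx1 over Pcbp2 was 2.03 in FPKM and 1.001 per kilobase of human coding sequence in knockout cells, and 1.84 and 0.910 in vector cells, where the order reversed because another length was used.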

Other observations

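Stress granules are cytoplasmic assemblies of stalled mRNAs and their binding proteins, YBX1 among them. The deposited annotation put 36 listed genes in this compartment, of which 28 were compared, with 2 higher and 1 lower in knockout cells, or 10.7% called against 7.24% of all compared genes, and a median log2 ratio of -0.02. Dhx36, a helicase gene whose protein unwinds G-quadruplexes, had 20 counts in knockout cells and 2 in vector cells, a ratio of 11.1 (2.69 to 97.7). Rbm4, an RNA-binding protein gene, had 30 counts in knockout cells and 15 in vector cells, a ratio of 2.21 (1.15 to 4.43), and Elavl1 was the lower one. The well-counted members Pabpc1, Ybx1, Ddx3x and Hnrnpk had ratios from 0.896 to 1.06.

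Of 40 listed partners, 6 below the count minimum had counts in 1 library only, 3 in knockout cells and 3 in vector cells. Over all 3764 genes, 3286 had a count in knockout cells and 3544 in vector cells. Counts in 1 library only were thus not particular to these partners. Of the 6 partners, 4 had 2 to 6 counts, and the other 2 had more. Stau1, which encodes a double-stranded RNA-binding protein of mRNA transport and decay, had 19 counts in knockout cells and 0 in vector cells. That was 7.01-fold higher against a floor of 3 counts, and the counting interval allowed a ratio as low as 5.16. Strap, which encodes a WD-repeat protein, had 0 counts in knockout cells and 16 in vector cells, 4.82-fold lower against that floor. The counting interval of Strap allowed a difference as small as 3.48-fold.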
